A study of Mus musculus with 3 samples.

Results

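Histones are the proteins that package DNA into nucleosomes, and 42 of the 15403 named genes in the table analysed here carry a symbol beginning with Hist1h to Hist4h, H1f, H2af or H3f3. Of these, 32 are cluster genes (Hist symbols) and 10 are variant genes (H1f, H2af and H3f3 symbols). GENCODE M21 lists 91 symbols of this form, and the other 49 were not analysed here. The cells were C2C12, a mouse myoblast line that forms contractile myotubes once serum is lowered, collected at day 2 in differentiation medium with 2% horse serum. Extract (500 µg) was incubated with antibody against YB-1, antibody against HuR, or control IgG, and the RNA that came down was sequenced. Each antibody has 1 library, so no difference given here has a replicate check and none computed here carries a p-value. In these bulk libraries more cells with an mRNA and more of it per cell cannot be told apart, nor can recovery by the antibody and abundance in the extract, since no input library was analysed here. The library columns end in a tag, siCtl, that the sample labels do not explain.

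Cluster genes supply histones to cells that are copying their DNA. Most of their mRNAs have no poly(A) tail and end instead just after a conserved stem-loop, which the stem-loop binding protein (encoded by Slbp) recognises. Variant genes are transcribed outside S phase too, usually have introns and make ordinary polyadenylated mRNAs, and some cluster genes make a longer polyadenylated form in cells that have stopped dividing. HuR binds AU-rich and U-rich stretches of mRNAs, and YB-1 is a cold-shock domain protein that coats many mRNAs. Whether poly(A) RNA was selected before sequencing is not given in the sources used here.

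The stem-loop is shown first because its letters and its place in the annotated transcript differ among the histone genes whose values follow. The 16-letter pattern searched was GG, any 2 bases, CTTTT, any base, AG, any 2 bases and CC. It was looked for on the RNA strand of every GENCODE transcript (T stands for U). It was found in 25 of 32 cluster genes, in 1 of 10 variant genes (H2afx), and in 19 of 13783 other protein-coding genes in the table (0.138%). The annotated transcripts of Hist1h2ak, Hist1h2an, Hist1h3i and Hist2h2bb end at the stop codon. A match beyond it could not be found in these genes. A match is a stretch of letters and was not tested as a binding site. Capitals mark the 16 letters, with up to 7 bases on either side, 5′ to 3′ on the gene's strand, and positions are on GRCm38. The first 5 come from abundant cluster genes, the next 3 from H4 genes, and the last from the variant gene.
Hist1h1c, chr13:23739505-23739534, plus strand: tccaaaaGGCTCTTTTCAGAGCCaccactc
Hist1h1e, chr13:23621775-23621804, minus strand: acccaaaGGCTCTTTTCAGAGCCacccaca
Hist2h3c1, chr3:96247320-96247349, plus strand: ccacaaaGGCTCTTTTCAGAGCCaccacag
Hist2h3c2, chr3:96238478-96238507, minus strand: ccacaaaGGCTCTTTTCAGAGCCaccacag
Hist3h2a, chr11:58955165-58955194, plus strand: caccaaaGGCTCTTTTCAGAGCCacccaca
Hist1h4h, chr13:23531451-23531480, plus strand: aaccaaaGGCCCTTTTCAGGGCCgcccaca
Hist1h4i, chr13:22040959-22040988, minus strand: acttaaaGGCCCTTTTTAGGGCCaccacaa
Hist4h4, chr6:136803991-136804020, minus strand: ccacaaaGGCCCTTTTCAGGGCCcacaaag
H2afx, chr9:44335233-44335262, plus strand: ccacaaaGGCCCTTTTAAGGGCCaccacct

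The form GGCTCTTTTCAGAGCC was shared by 16 cluster genes of types H1, H2A, H2B and H3. The H4 genes carried other stems, with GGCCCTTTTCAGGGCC in 3 of them. The windows of Hist2h3c1 and Hist2h3c2 are identical, and both genes encode H3. In H2afx the letters lie 46 nt after the stop codon, and the annotated transcript goes on for 822 nt beyond them.

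Sequencing depth was 39112714 reads with YB-1, 24797504 with HuR and 10630155 with IgG. Levels are the authors' normalized counts, in which 1 read is worth 0.531 with YB-1, 0.862 with HuR and 2.29 with IgG. All 8 muscle markers were detected in each library, and they summed to 501950 normalized counts with YB-1, 600930 with HuR and 1137200 with IgG. They did not move together: in YB-1 over IgG the log2 ratio was 2.01 for Myod1 and 1.73 for Myog, but -4.66 for Ttn and -2.59 for Ckm. The IgG library stood apart: 2051 genes, with 20.8% of its reads, had over 3 reads and a level at least 8-fold above both others (a library at 0 was taken as 0). Of other cell types, endothelial markers (4 genes, among them Pecam1 and Cdh5) summed to 9151 normalized counts with IgG against 14.3 with YB-1 and 1.72 with HuR, with 3 of 4 at 0 with HuR. Adipocyte markers (4 genes) summed to 574 with IgG, and all 4 were at 0 with YB-1 and with HuR. Blood markers (3 genes in the table) summed to 172 with IgG, 15.4 with YB-1 and 0 with HuR. Neuronal markers (3 genes) summed to 2974 with IgG, 4663 with YB-1 and 9829 with HuR. Tubb3 alone gave 2841, 4577 and 9661 of these sums, and Map2 gave 126, 86.1 and 167. Rbfox3 had 3 reads with IgG and 0 with YB-1 and HuR. The part of all these markers in the histone ratios to IgG was not tested.

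Low counts were spread differently over genes in the libraries. For IgG, 1348 genes had 1 to 3 reads, 1221 had 4 to 10 and 1134 had 11 to 24. In the YB-1 library 163 genes had 1 to 3 reads, 126 had 4 to 10 and 665 had 11 to 24, with a second maximum (of the numbers smoothed over 5 neighbouring counts, from 3 reads upwards) at 18. In the HuR library the numbers were 136, 192 and 812, with that maximum at 17. With YB-1, 12 of 32 cluster genes (37.5%) had 0 reads, against 18.7% of all genes, and the lowest cluster count above 0 was 11. With HuR, 20 of 32 (62.5%) had 0 reads, against 20.3% of all genes, and 3 cluster genes had 1 to 10 reads. With IgG, 7 of 32 (21.9%) had 0 reads, against 2.57%. The cause was not tested. A counting interval takes each read as independent, so many of the 95% counting intervals below are followed by a wider one, computed after dividing the reads of YB-1 by 18 and those of HuR by 17 (chosen after the counts were seen).

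**Figure D1:**
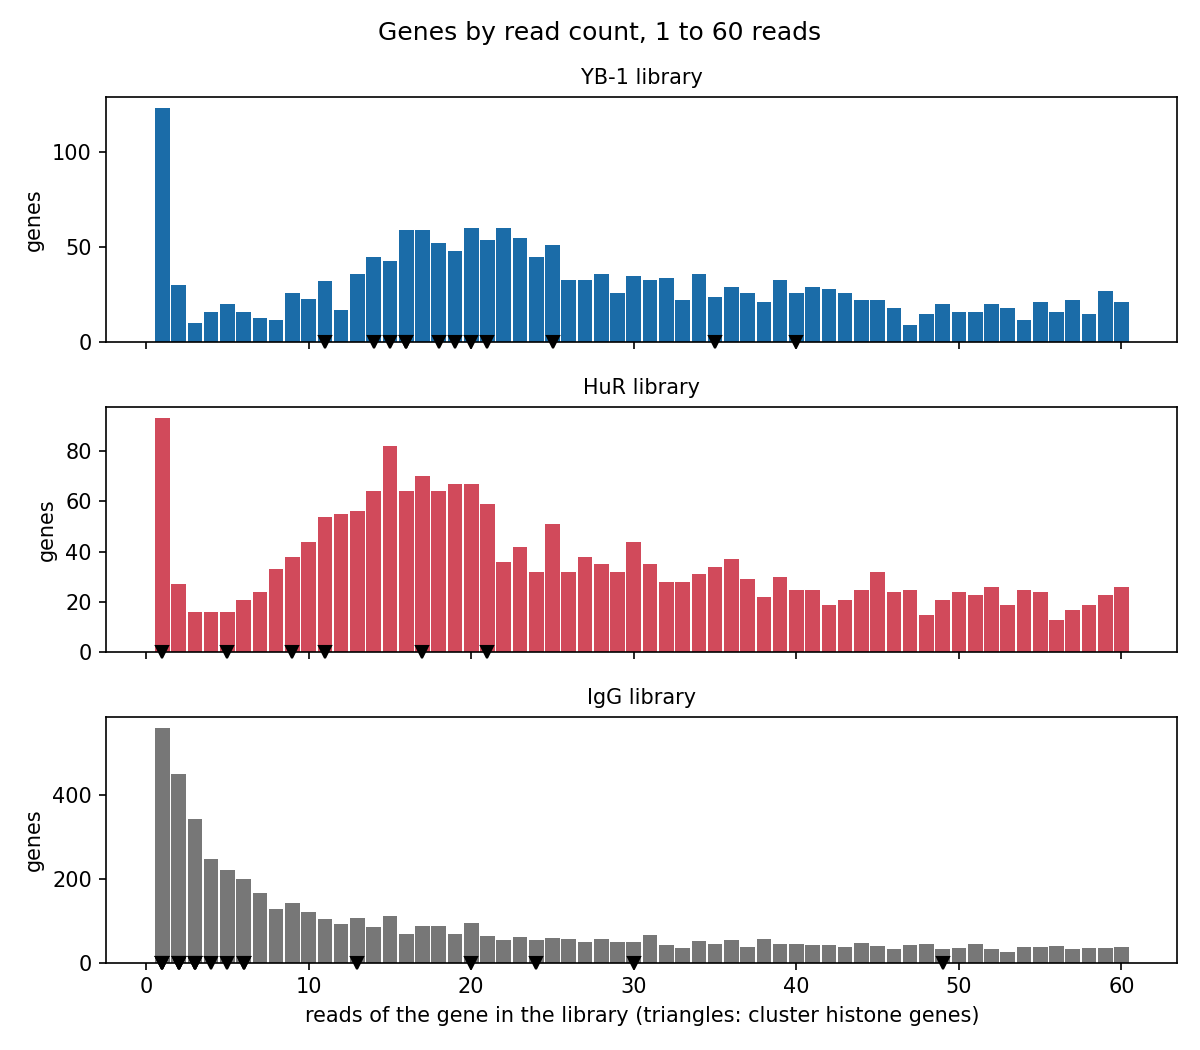
Number of genes (vertical axis) with each read count from 1 to 60 (horizontal axis, reads) in the YB-1, HuR and IgG libraries, with black triangles at the counts of cluster histone genes. Counts with IgG fall from 1 read upwards, whereas YB-1 and HuR have few genes between 4 and 10 reads and a broad maximum near 18 and 17.

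Variant genes carried most of the histone reads, and all 10 were detected in each library. They held 1234 reads per 1000000 of the library (RPM) with YB-1 (exact 95% binomial interval 1223 to 1245), 2244 with HuR (2225 to 2263) and 1008 with IgG (989 to 1027). Cluster genes held 126.8 with YB-1 (123.3 to 130.4), 202.2 with HuR (196.7 to 207.9) and 227.5 with IgG (218.5 to 236.7). A single gene carried much of each share. Without H3f3b the variant shares were 797.7, 866.5 and 736.6, and without Hist1h1c the cluster shares were 74.7, 72.2 and 98.8. By type, the H3 variants stood out with HuR with 1780 RPM against 768 with YB-1 and 566 with IgG. Cluster H4 genes held 19.7 RPM with IgG, 1.53 with YB-1 and 0.0403 with HuR, which was 1 read. Variant H1 genes held 147.5, 136.9 and 142.9 with YB-1, HuR and IgG.

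**Figure D2:**
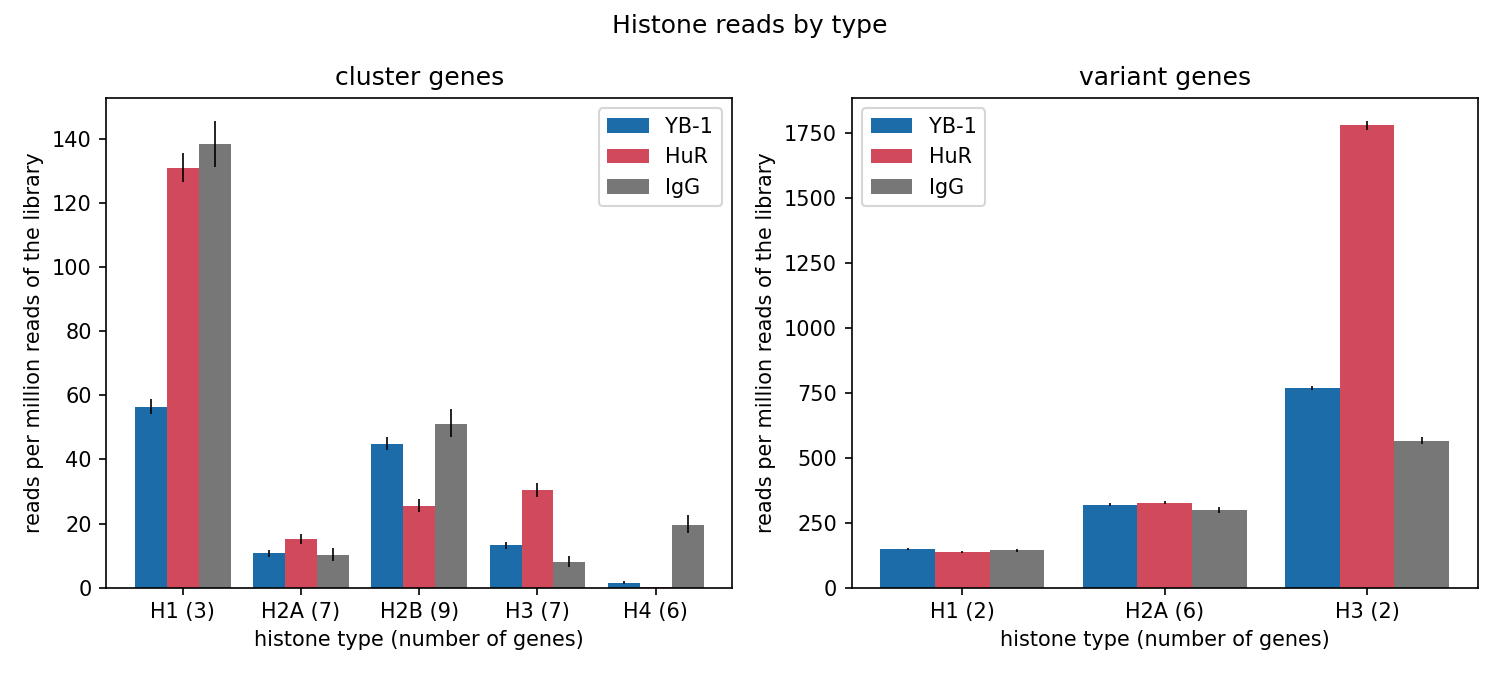
Share of the library in RPM (vertical axes), summed by histone type for the cluster genes (left) and the variant genes (right) in the YB-1, HuR and IgG libraries, with exact 95% binomial intervals and the number of genes in brackets. The H3 variants reach 1780 with HuR, and cluster H4 genes hold 19.7 with IgG against 1.53 with YB-1.

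H3f3b and H3f3a encode the same replacement histone, H3.3, from genes on different chromosomes, and their mRNAs differed in the HuR library. H3f3b stood at 9069 normalized counts with YB-1, 29446 with HuR and 6620 with IgG. H3f3a stood at 6898 with YB-1, 8599 with HuR and 7189 with IgG. H3f3b with HuR lay well above its other values, and those of H3f3a were close together. With HuR it was 3.25-fold higher than with YB-1 (95% counting interval 3.19 to 3.31, wider interval 3.004 to 3.511) and 4.45-fold higher than with IgG (4.28 to 4.62, wider 4.20 to 4.71). H3f3a was 1.25-fold higher with HuR than with YB-1 (1.21 to 1.28, wider 1.12 to 1.39), a log2 ratio of 0.32 that became 1.05 when the libraries were recentred on ribosomal protein genes. Per kb of annotated exon, H3f3b was the highest histone mRNA in each library, at 3047 normalized counts with YB-1, 9895 with HuR and 2225 with IgG. H3f3a followed with 1968, 2454 and 2052. Of 11868 genes with a ratio of HuR over YB-1, 1157 were at or above H3f3b and 4168 at or above H3f3a. H3f3b lies on chromosome 11 from 116021912 to 116027962 and H3f3a on chromosome 1 from 180800832 to 180813943, both on the minus strand. In H3f3a, 30.3% of the 50-base windows of its longest coding transcript also occur in transcripts of other genes, against 8.4% in H3f3b, and reads from such windows could be assigned to either gene. H3f3a also overlaps the antisense genes Gm17275 over 638 nt and H3f3aos over 160 nt. Since the strand setting of the counting is not given, reads of such partners cannot be told apart.

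AU-rich elements often hold the pentamer ATTTA, searched here on the RNA strand of the annotated 3′ UTR. The H3f3b 3′ UTR of 1495 nt holds 4 and the H3f3a 3′ UTR of 2245 nt holds 2. Among other genes with a 3′ UTR within 1.2-fold of these lengths, 83.9% and 91.9% hold at least 1, with medians of 2 and 3. The pentamer is in capitals in the sites below, which are shown because HuR is known to bind AU-rich stretches and these mRNAs encode 1 protein. Whether HuR binds there was not measured.
H3f3b, chr11:116022907-116022927, minus strand: ctatgtgcATTTAtaatagct
H3f3b, chr11:116022807-116022827, minus strand: tgtgtgtaATTTAgtccagtt
H3f3b, chr11:116022654-116022674, minus strand: gggattttATTTAtaagggct
H3f3b, chr11:116022304-116022324, minus strand: ttgactaaATTTAcaaataaa
H3f3a, chr1:180802391-180802411, minus strand: tattaaacATTTAatggtaaa
H3f3a, chr1:180801648-180801668, minus strand: ctcttctcATTTAacagcacc

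The macroH2A genes, H2afy and H2afy2, encode H2A variants with a large extra domain, and both were higher with HuR than with YB-1. H2afy2 stood at 264 normalized counts with YB-1, 685 with HuR and 82.6 with IgG. It was the histone gene with the highest ratio of HuR over IgG, 8.30-fold (5.94 to 11.9, wider 5.26 to 13.2), and 207 of 13024 genes were at or above it. It was 3.19-fold higher with YB-1 than with IgG (2.27 to 4.61) and 2.60-fold higher with HuR than with YB-1 (2.32 to 2.92, wider 1.59 to 4.33). H2afy stood at 837 with YB-1, 1715 with HuR and 2334 with IgG. It was lowest with YB-1, 2.79-fold below IgG (2.58 to 3.02) and 2.05-fold below HuR (1.92 to 2.19, wider 1.54 to 2.735). The order of the libraries was thus HuR, YB-1, IgG for H2afy2 and IgG, HuR, YB-1 for H2afy. H2afy2 overlaps Aifm2 over 233 nt and H2afy overlaps Gm47071 over 501 nt, each on the other strand.

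H2A.Z, a variant found at promoters, is encoded by H2afz and H2afv. H2afz stood at 2534 normalized counts with YB-1, 1754 with HuR and 3001 with IgG, and H2afv at 1313, 1412 and 1005. H2afz was 1.44-fold lower with HuR than with YB-1 (1.37 to 1.52, wider 1.16 to 1.81), but its log2 ratio of -0.53 turned to 0.21 with ribosomal recentring. H2afv differed little between them, 1.08-fold higher with HuR (1.01 to 1.14, wider 0.82 to 1.41). For H2afz, 69.6% of the windows occur in transcripts of other genes, among them Tmcc1 and the gene model Gm8203, so the level of H2afz is uncertain. No window of H2afv is shared.

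H2afx encodes H2A.X, which is phosphorylated at DNA breaks, and H2afj another H2A variant. H2afx stood at 940 with YB-1, 1215 with HuR and 425 with IgG. It was 2.21-fold higher with YB-1 than with IgG (1.90 to 2.59), although its log2 ratio turned to -0.02 with ribosomal recentring, and 2.86-fold higher with HuR than with IgG (2.45 to 3.35). H2afj stood at 727 with YB-1, 215 with HuR and 445 with IgG, so that IgG lay between the antibodies in the authors' scaling. With ribosomal recentring IgG was above both, at log2 ratios of -0.46 for YB-1 and -1.54 for HuR over IgG. H2afj was 3.39-fold lower with HuR than with YB-1 (2.96 to 3.89, wider 1.92 to 6.40) and 2.07-fold lower than with IgG (1.71 to 2.51, wider 1.22 to 3.81). Of 11868 genes, 444 were at or below it in HuR over YB-1. The H2afj 3′ UTR of 1345 nt holds 3 ATTTA pentamers, against 4 in H3f3b. A gene model on the other strand, Gm44335 for H2afx and Gm44364 for H2afj, overlaps each over 141 nt.

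Linker histones bind the DNA between nucleosomes. The variant H1f0, known to accumulate in differentiated cells, stood at 2413 normalized counts with YB-1, 2456 with HuR and 3118 with IgG. In the authors' scaling it was 1.02-fold higher with HuR than with YB-1 (0.97 to 1.07), a log2 ratio of 0.03 that became 0.76 with ribosomal recentring. The variant H1fx stood at 654, 472 and 367. YB-1 was thus the highest, but with ribosomal recentring it was the lowest, at log2 ratios of -0.34 for YB-1 over IgG and 0.27 for HuR over YB-1. Among cluster linker genes, Hist1h1c was by far the most abundant, at 1084 with YB-1, 2779 with HuR and 3139 with IgG. It was 2.90-fold lower with YB-1 than with IgG (2.70 to 3.10, wider 2.39 to 3.54) and 2.56-fold higher with HuR than with YB-1 (2.425 to 2.712, wider 2.02 to 3.27). Hist1h1e stood at 55.3 with YB-1, 9.48 with HuR and 190 with IgG, the opposite order of the antibodies. It was 5.83-fold lower with HuR than with YB-1 (3.126 to 12.03), but rests on 11 reads with HuR and the wider interval of the fold reached from 0.518 to 1515. It also shares 496 nt of exon with Hist1h2be on the same strand. Hist1h1d stood at 35.1, 14.7 and 45.9.

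**Figure D3:**
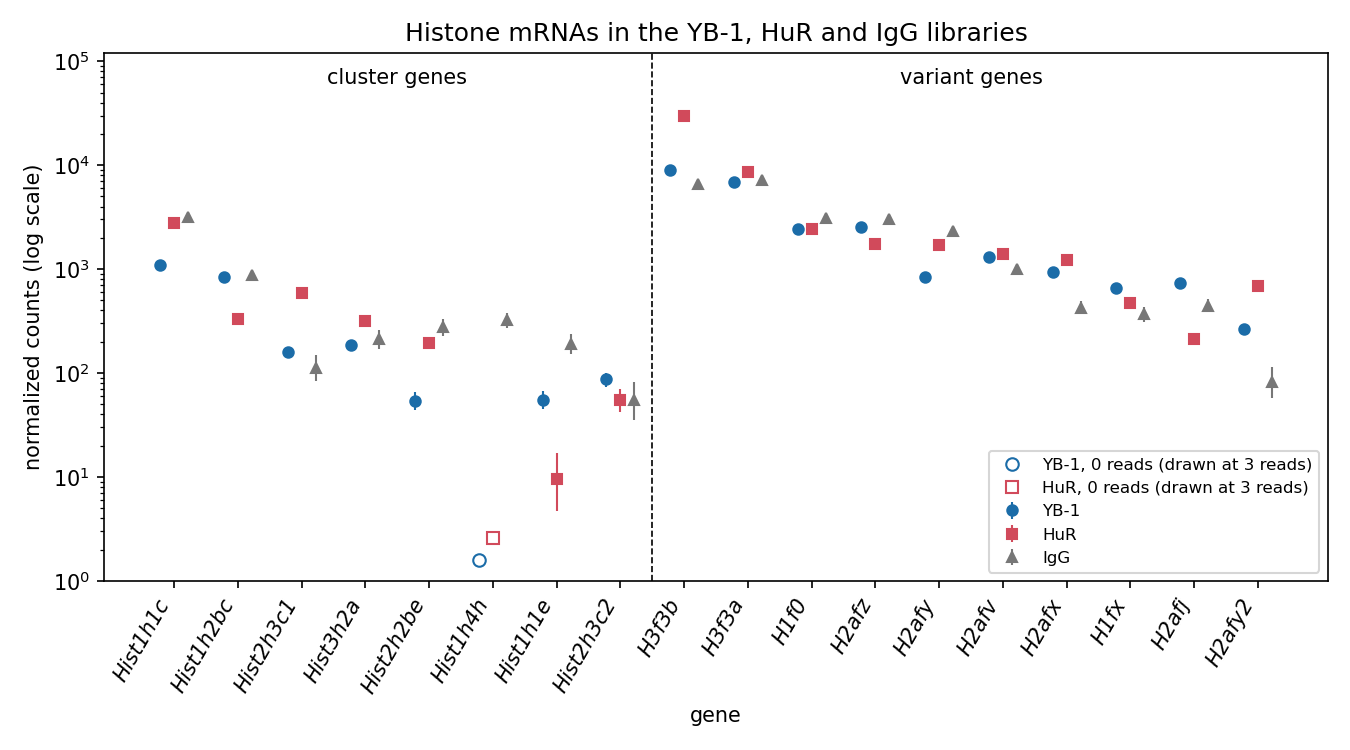
Normalized counts (vertical axis, log scale) of the 18 histone genes with a mean of 50 or more, cluster genes left and variant genes right, in the YB-1, HuR and IgG libraries with exact 95% Poisson intervals, where open symbols mark 0 reads drawn at the level of 3 reads. H3f3b at 29446 with HuR is the highest value, and Hist1h4h has reads with IgG and 0 reads with both others.

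The cluster genes of the core histones differed gene by gene. Hist1h2bc, an H2B gene whose annotated transcript is spliced and lacks the stem-loop letters, stood at 843 with YB-1, 331 with HuR and 870 with IgG. It was 2.55-fold lower with HuR than with YB-1 (2.28 to 2.86, wider 1.59 to 4.24). Hist2h2be, another H2B gene, stood at 54.2, 194 and 275. It went the other way, 3.58-fold higher with HuR than with YB-1 (2.82 to 4.57, wider 1.25 to 11.8), and was 5.08-fold lower with YB-1 than with IgG (3.87 to 6.68). Its 3′ UTR of 2192 nt holds 9 ATTTA pentamers, against a median of 3 in genes of like length, and that of Hist1h2bc, of 742 nt, holds 1, against 1. Hist1h1c holds 0 in 880 nt and H2afy2 holds 1 in 632 nt, and both were higher with HuR than with YB-1. Hist2h3c1 holds 5 in 1213 nt and H3f3b 4 in 1495 nt, and both were also higher with HuR. H2afj holds 3 in 1345 nt and was lower with HuR. Whether the number of pentamers goes with the ratio of HuR over YB-1 was not tested.

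The H3 genes Hist2h3c1 and Hist2h3c2 stood at 160 and 86.6 with YB-1, 595 and 55.2 with HuR, and 112 and 55.1 with IgG. Hist2h3c1 was 3.72-fold higher with HuR than with YB-1 (3.24 to 4.27, wider 2.06 to 7.02) and 5.29-fold higher than with IgG (3.96 to 7.22). All of its windows occur in other transcripts, since a second gene model, Gm20634, covers all 1825 nt of it on the same strand, and 63.5% of those of Hist2h3c2 do. The value assigned to each of these H3 genes is therefore uncertain. Hist3h2a, an H2A gene, stood at 185 with YB-1, 314 with HuR and 211 with IgG, and its wider interval of HuR over YB-1 included equality (1.70-fold, 0.874 to 3.315). Its 3′ UTR of 1700 nt holds 8 ATTTA pentamers, against a median of 2 in genes of like length. It overlaps Trim17 on the same strand over 708 nt, so reads may belong to either.

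Of the 6 H4 genes, 2 held most of the H4 reads of the IgG library, and 2 others had low counts that were highest with YB-1. Hist1h4h had 140 reads with IgG and 0 with both YB-1 and HuR. Set against a floor of 3 reads per library, it was 201.5-fold lower with YB-1 and 124-fold lower with HuR than with IgG. The counting intervals of these folds ran from 161.8 and 99.69 upwards. With the floor set at 3 times the counts of 18 and 17, it was 28.7 normalized counts with YB-1 and 44.0 with HuR. The folds of Hist1h4h then shrank to 11.2 and 7.31, with wider intervals from 8.99 and 5.86 upwards. Hist1h4i had 61 reads with IgG, 0 with YB-1 and 1 with HuR. Its ratio of IgG over HuR, which rests on that 1 read, was 162 (28.1 to 6517), with a wider interval from 2.43 upwards. Against the floor of 3 reads Hist1h4i was 87.8-fold lower with YB-1 than with IgG, with an interval from 69.3 upwards. With the larger floor it was 4.88-fold lower, with a wider interval from 3.85 upwards. Both genes are among the 5 histone genes that met the 8-fold limit against both other libraries, 11.9% of 42 against 13.3% of all genes. The remaining ones were Hist1h3g, Hist1h3f and Hist1h2bm with 4, 5 and 6 reads with IgG. These 3 genes fell under the filter on low values and have no ratio here. Hist4h4 had 40 reads with YB-1, 0 with HuR and 3 with IgG, and Hist2h4 had 20, 0 and 0. Both YB-1 counts lie under the larger floor, which is 54 reads in that library, and neither gene has a ratio to IgG. The counting interval of Hist4h4 in YB-1 over IgG included equality (0.983 to 15.6).

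Most cluster genes were close to undetected. Of the 32, 12 had a mean of 10 or more over the libraries, and 8 a mean of 50 or more. The 20 below 10 held 223 reads with YB-1, spread over 10 of them, 14 reads with HuR over 2, and 39 reads with IgG over 13. They made up 5.70 RPM with YB-1 (4.978 to 6.501), 0.565 with HuR (0.309 to 0.947) and 3.67 with IgG (2.609 to 5.015), where 0 reads would allow up to 0.0767, 0.121 and 0.282, or 1.38 for YB-1 and 2.06 for HuR with the larger floors. Seen with YB-1 alone were Hist1h2ak with 25 reads, Hist2h4 with 20, Hist3h2ba with 19, Hist1h2an with 18 and Hist1h3e with 16. These counts lie around 18, the second maximum in that library. Hist1h3i had 35 reads with YB-1, 0 with HuR and 1 with IgG. Also at 0 with HuR were Hist1h2bh, Hist2h2bb, Hist2h2ac and Hist1h2ac, with 14, 21, 15 and 11 reads for YB-1 and 6, 1, 2 and 13 for IgG. Seen with HuR alone were Hist1h2ao with 9 reads and Hist1h2bf with 5. In IgG alone, 9 cluster genes were seen, 8 of them other than Hist1h4h with 1 to 6 reads.

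**Figure D4:**
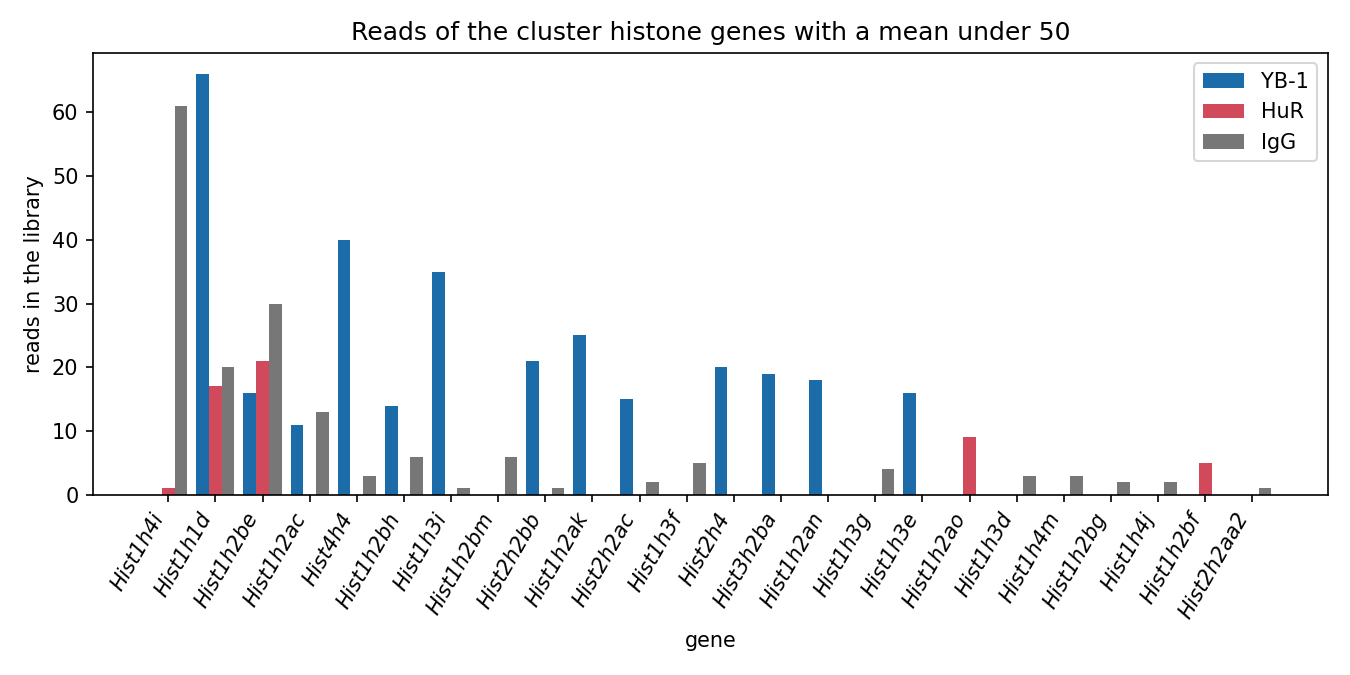
Reads (vertical axis) in the YB-1, HuR and IgG libraries for the 24 cluster histone genes with a mean under 50. Bars of YB-1 are either absent or at 11 reads and above, HuR has reads in 5 of these genes, and most IgG bars are at 6 reads or fewer.

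The cluster genes were also described by their annotated 3′ ends, without a test. In 16 cluster genes the GENCODE transcript runs 200 nt or more past the stem-loop letters (a length chosen after the values were seen), and these had a median mean level of 21.9 normalized counts, with 9 of 16 at 10 or more. In 9 genes it stops sooner, with a median of 2.59 and 1 of 9 at 10 or more, which was Hist1h4h. The remaining 7 genes hold no match in the transcript and had a median of 4.48, with 2 of 7 at 10 or more. They include Hist1h2ak, Hist1h2an, Hist1h3i and Hist2h2bb, whose annotated 3′ UTR is 0 nt long, so the search could not find a match after the stop codon. Of the 8 genes with a mean of 50 or more, 5 were in the first set, and Hist1h2bc and Hist2h2be were among those with no match. Longer transcripts also collect more reads, and the part of length in this was not tested. The first set held 80.3 RPM with YB-1, 177 with HuR and 165 with IgG, the second 0.869, 0.565 and 14.5, and the third 45.7, 24.6 and 47.5.

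Ratios to IgG could be taken for 12 of the 32 cluster genes and for all 10 variant genes. Hist1h4h, Hist1h4i and Hist1h2ac passed the filter on low values through IgG alone. So did Hist1h2be, at 8.50 normalized counts with YB-1, 18.1 with HuR and 68.8 with IgG. Without its IgG value the mean of Hist1h2be over the libraries would be under 10. The medians and counts therefore describe only the genes with a ratio and support no difference of the class. In YB-1 over IgG, 12 cluster genes had a median log2 ratio of -1.66 and 10 variant genes 0.42, against -0.17 for all 13022 genes. The variant median turned to -0.75 with ribosomal recentring, and the cluster median was -0.86 at a mean of 50 or more and -0.19 without the filter on low values. Of 22 histone genes, 2 were at least 2-fold higher (H2afx and H2afy2) against 17.0% of all genes, and 8 at least 2-fold lower against 32.8%. Of the 8 lower ones, 7 were cluster genes. In HuR over IgG the medians were -1.52 for 12 cluster genes (-0.34 at a mean of 50 or more) and 0.31 for 10 variant genes (-0.18 with ribosomal recentring), against -0.16 for all 13024 genes. Here 4 histone genes were at least 2-fold higher against 18.9% of all genes, and 8 lower against 31.1%. With the wider intervals, 9 of the 10 genes past 2-fold in YB-1 over IgG and 9 of the 12 in HuR over IgG still excluded equality. Hist1h2ac did not in either ratio, and Hist1h1d and Hist1h2be did not in HuR over IgG. Both ratios share the IgG library.

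In HuR over YB-1, which takes no reads from IgG, both classes spread to either side of 0. The median log2 ratio was 0.06 for 10 cluster genes (-1.44 without the filter), from -3.04 to 1.90, and 0.21 for 10 variant genes, from -1.76 to 1.70, against -0.06 for all 11868 genes. Of 20 histone genes, 7 were at least 2-fold higher with HuR against 19.3% of all genes, and 5 at least 2-fold lower against 10.6%. The higher ones were Hist2h3c1, Hist2h2be, H3f3b, H2afy2, Hist1h1c, Hist1h2be and H2afy. The lower ones were Hist4h4, Hist1h1e, H2afj, Hist1h2bc and Hist1h1d. Hist4h4, which has the lowest ratio (-3.04), had 0 reads with HuR and passed the filter on low values through YB-1 alone. With the larger floors it has no ratio, and the counts describe only the genes with a ratio. Hist1h1e and Hist1h1d also passed the filter through YB-1 alone. Their HuR values of 9.48 and 14.7 would by themselves leave the mean of the 2 libraries under 10. Hist1h2be, among the higher ones, needed both libraries to pass, at 8.50 with YB-1 and 18.1 with HuR. With the wider intervals 8 of these 12 still excluded equality, and Hist4h4, Hist1h1e, Hist1h1d and Hist1h2be did not. Ribosomal recentring moved the median of all genes by 0.74 in this ratio, and by 1.17 and 0.49 in the opposite direction for YB-1 and HuR over IgG. Among all genes past 2-fold, the share that was higher was 34.1%, 37.8% and 64.4% in YB-1 over IgG, HuR over IgG and HuR over YB-1. With ribosomal recentring these were 3.53%, 21.7% and 90.7%, and with scaling to total reads the first was 44.5%. Scaling to total reads shifted the zero point of the ratios to IgG by -0.23 for YB-1 and -0.19 for HuR.

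**Figure D5:**
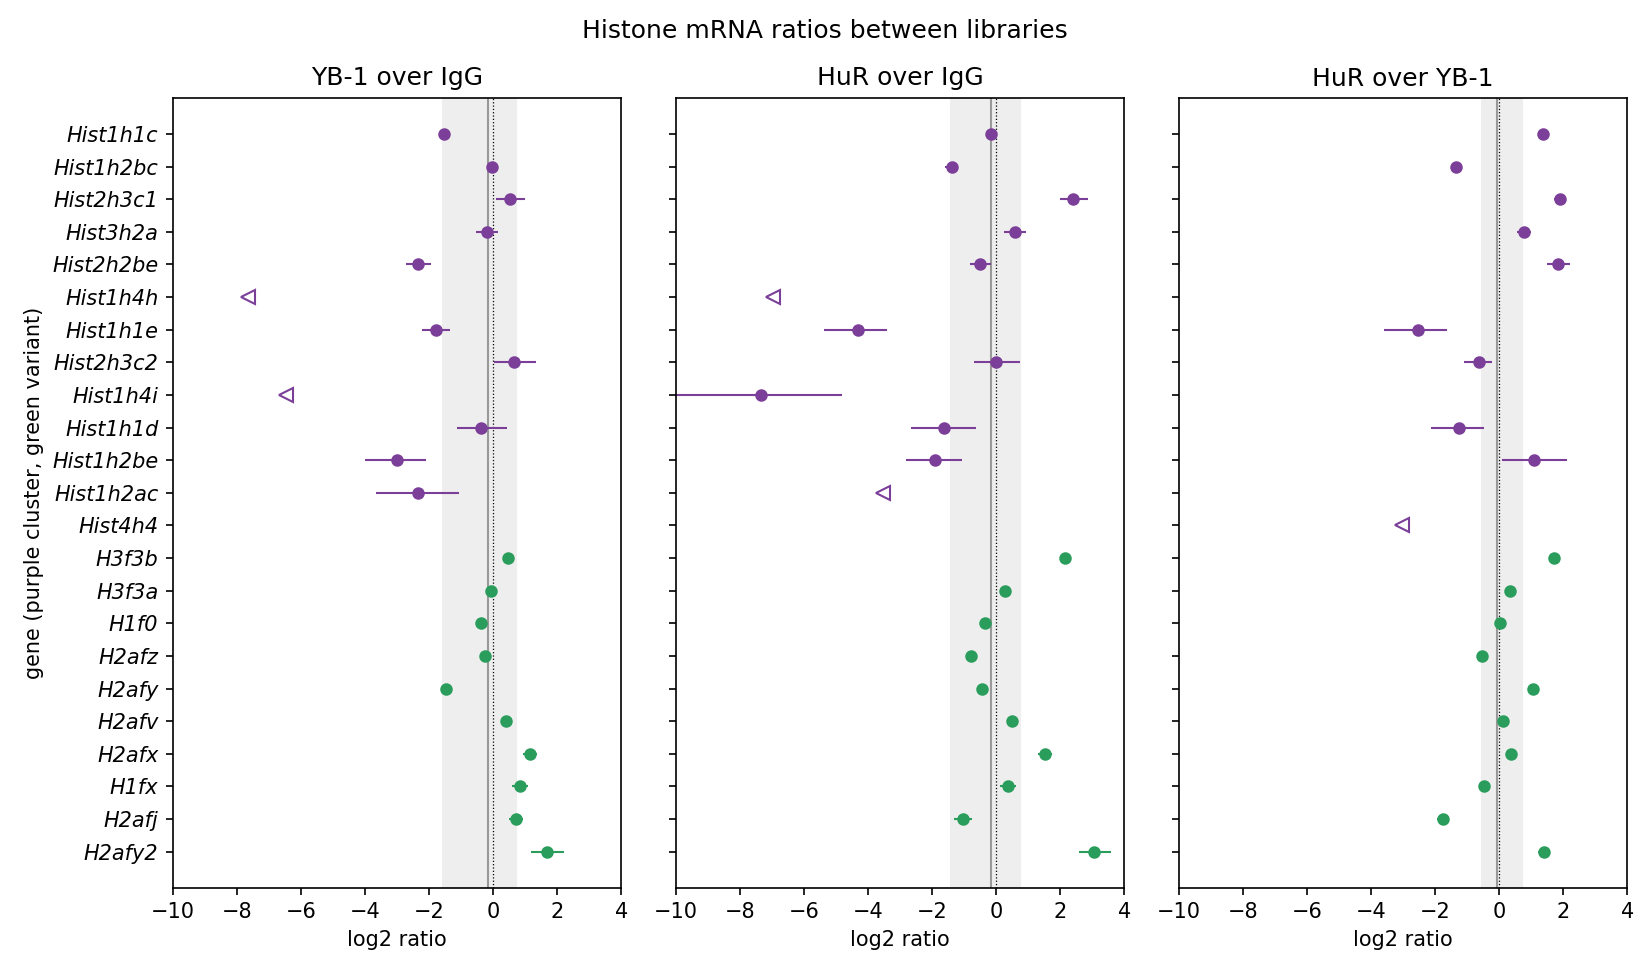
Log2 ratios (horizontal axes) of YB-1 over IgG, HuR over IgG and HuR over YB-1 for the 23 histone genes with a ratio in at least 1 comparison (purple cluster, green variant). Bars are 95% counting intervals, and open triangles mark ratios in which 0 reads were set to the floor of 3. Grey bands and lines give the quartiles and median of all genes. The interval of Hist1h4i in HuR over IgG runs past the axis. Cluster genes spread from -7.65 to 2.40 against IgG, and variants from -1.48 to 3.05.

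In the authors' deposited table, which compares YB-1 with IgG on 1 library each, no gene had an adjusted p under 0.05 and 213 had an unadjusted p under 0.05. None of the 42 histone genes was among these. In the authors' deposited table the lowest unadjusted p of a histone gene was 0.155, for Hist2h2be, with a moderated log2 fold change of -1.50 and a standard error of 1.06.

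Genes that process histone mRNAs and assemble histones were measured beside them. Slbp stood at 314 normalized counts with YB-1, 954 with HuR and 271 with IgG, a log2 ratio of HuR over YB-1 of 1.60. Of 11 genes of 3′ end processing with a ratio, 1 was at least 2-fold higher and 2 lower in YB-1 over IgG, 3 and 2 in HuR over IgG, and 2 and 0 in HuR over YB-1, with medians of 0.02, -0.02 and 0.12. Of all genes, 17.0% were higher and 32.8% lower in the first ratio, 18.9% and 31.1% in the second, and 19.3% and 10.6% in the third. With ribosomal recentring the counts were 0 and 6, 2 and 3, and 5 and 0. The most abundant, the Sm protein genes Snrpb and Snrpd3, had log2 ratios of HuR over YB-1 of -0.38 and 1.30. Of 19 chaperone and assembly genes, 4 were higher and 3 lower in YB-1 over IgG, 6 and 3 in HuR over IgG, and 3 and 0 in HuR over YB-1, with medians of 0.31, 0.38 and -0.14, beside the same shares of all genes. With ribosomal recentring these counts were 1 and 8, 5 and 5, and 5 and 0. Rbbp4, a histone-binding subunit of several chromatin complexes, stood at 8351, 19341 and 4371 with YB-1, HuR and IgG, and Nap1l1, an H2A-H2B chaperone, at 4374, 5932 and 3520.

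Genes of DNA synthesis, which are active in the same cell cycle phase as cluster histone genes, were counted in the same way. Of 15 S-phase genes, 11 were at least 2-fold higher with YB-1 than with IgG and 2 lower, against 17.0% and 32.8% of all genes, and their median was 1.27 on the log2 scale. With ribosomal recentring 1 was higher and 2 were lower, with a median of 0.10. In the authors' scaling the counts among the 12 cluster genes were 0 and 7, with a median of -1.66 (-2.83 with recentring). The lower ones include Hist1h4h, Hist1h4i, Hist1h2ac and Hist1h2be, which passed the filter on low values through IgG alone. So did Ccne2 among the lower S-phase genes. The difference between the lists was not tested. In HuR over IgG, 6 of 15 were higher and 2 lower, against 18.9% and 31.1% of all genes, with a median of 0.84 (0.36 with recentring). In HuR over YB-1, 2 of 14 were higher and 2 lower, against 19.3% and 10.6%, with a median of -0.33 (0.41 with recentring). Rrm2 and Rrm1, which encode ribonucleotide reductase, stood at 2104 and 2364 with YB-1, 4818 and 2092 with HuR, and 778 and 1166 with IgG.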

How the data were processed

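RNA from 3 immunoprecipitations (YB-1, HuR and IgG, 1 library each) was analysed from 1 table of the authors. The tools named are TopHat2 2.0.10, HTSeq 0.6.1 and DESeq2, and the builds mm10 and GRCm38, per the submitters' processing notes. No source used here gives the strand setting or the treatment of multiply mapped reads. The deposited signal per gene and library is a read count divided by the authors' size factor. The deposited table also holds the authors' moderated log2 fold change between YB-1 and IgG, its standard error, a Wald score and the p-value. Every value was a whole multiple of 1 read within 0.01 read (100% in each library), so whole reads were recovered. No count test was run on them, since 1 library per antibody leaves no spread to fit, and no number of called genes can be given for one. Of 15428 rows, 25 with dates as symbols were left out of all ratios.

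Ratios were taken from normalized counts (pandas 2.3.3, SciPy 1.17.1), with a library at 0 set to 3 reads and none given where both had 3 or fewer. Genes needed a mean of 10 over the libraries, or over YB-1 and HuR for their ratio. Intervals are Clopper-Pearson at 95% and cover counting error only. They were checked on simulated independent reads. That check cannot show how well they cover the unevenly spread low counts of the YB-1 and HuR libraries. Positions, transcripts, stem-loop letters and 50-base windows came from GENCODE M21 (GRCm38), in which all 42 symbols matched. The authors' annotation may differ. Genes with a mean of 50 or more are described singly, the others by range, with those at 0 in 1 library and above 3 reads in another named, beside Slbp and the 2 most abundant genes of each further list. The members, lists and tests were chosen with earlier results of these data known.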

Additional observations from a re-analysis of the deposited data

How the results depend on the processing

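The cluster median in YB-1 over IgG (-1.66) was -2.83 with ribosomal recentring, -0.86 at a mean of 50 or more, -0.19 without the filter, -0.77 by the authors' moderated fold and -2.07 in genes with under 50% shared windows. The variant median (0.42) was 0.65 scaled to total reads and reversed to -0.75 with ribosomal recentring. The 2 higher genes became 0 with ribosomal recentring or the moderated fold and 5 without the filter. The 8 lower became 14 with recentring and 5 at a mean of 50 or more or by the moderated fold. In HuR over IgG, the cluster median was -0.34 and the lower genes 4 at a mean of 50 or more. The variant median was 0.50 scaled to total reads and -0.18 with recentring. In HuR over YB-1, the cluster median of 0.06 was 0.79 with recentring, 1.06 at a mean of 50 or more, -1.44 without the filter and -0.25 in genes with under 50% shared windows. The variant median (0.21) was 0.95 with recentring and 0.32 in genes with under 50% shared windows. The 5 lower genes were 3 with recentring, 2 at a mean of 50 or more and 15 without the filter. For a single gene, the filters on the mean leave the ratio as it is. Dividing reads by 18 and 17 changes it only where 0 reads are set to the floor. Many of the 352 alternative values of the 18 singly described genes could therefore not change sign. Of the 352, 17 did, 12 with recentring and 5 scaled to total reads. H2afx in YB-1 over IgG, which turned to -0.02 with recentring, was the 1 of these that had been past 2-fold. With recentring H3f3b, H2afv, H2afj, H1fx, Hist2h3c1 and Hist2h3c2 were also lower with YB-1 than with IgG, at -0.72, -0.79, -0.46, -0.34, -0.66 and -0.52. The filters change which genes are counted, and recentring and scaling to total reads each move every gene of a ratio equally. For the other settings the cause was not tested. Dividing reads by 18 and 17, rescaling the other gene lists and leaving out genes with shared windows were chosen after seeing the data. No paired analysis was possible because each antibody has 1 library, which also leaves nothing to leave out. The 20 cluster genes with a mean under 10 have too few reads for a ratio to IgG.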

Other observations

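Chaperone genes singled out after their values were seen differed between partners in HuR over YB-1. Anp32e, which encodes a chaperone that removes H2A.Z from chromatin, stood at 1778 normalized counts with YB-1, 9004 with HuR and 2995 with IgG, a log2 ratio of HuR over YB-1 of 2.34, while H2afz was at -0.53 (0.21 with ribosomal recentring). The FACT complex subunits went apart as well, with Supt16 at 1.41 and Ssrp1 at -0.28. Ribosomal recentring shifts the zero point of this ratio by -0.74, which puts Ssrp1 on the HuR side too. The subunits of the replication-linked chaperone CAF-1, Chaf1a and Chaf1b, had log2 ratios of 1.62 and 2.44 in YB-1 over IgG and 1.22 and 2.21 in HuR over IgG, and Asf1b, which hands histones to CAF-1, had 1.74 and 1.76. Its paralog Asf1a had -1.77 and -0.84. Hira, which deposits H3.3 outside replication, had -0.38 and -0.83. All of these are in the authors' scaling unless stated.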
